A study of Homo sapiens with 16 samples.

Results

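The kinesins are the motor proteins that walk along microtubules, and the genes described here are those whose symbol is KIF followed by a number and an optional letter, together with KIFC1, KIFC2 and KIFC3. The rule found 42 kinesin genes among the 35993 genes of the count table, and 40 of them had enough reads to be tested. By their known roles they were divided into 14 mitotic kinesins, 7 neuronal transport kinesins, 10 general transport kinesins, 6 ciliary and Hedgehog kinesins and 5 others. The neuronal and general transport lists together held 17 transport kinesins. The 2 members that could not be tested were KIF2B, with at most 2 reads in a library, and KIF25, with at most 17.

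The libraries came from 4 established lines of human bladder cancer, all labelled wild type and named TCCSUP, RT112, J82 and 253J. Each line was grown for 48 h with CM-1758, an inhibitor of histone deacetylases given at the inhibitory concentration (IC50) determined for that line, or with the vehicle DMSO. There were 2 libraries in each of the 8 groups, 16 in all, and the study describes them as independent biological replicates. Since every line had its own concentration, and TCCSUP cells were grown in EMEM while the other lines were in DMEM GlutaMAX, line, dose and medium cannot be told apart.

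A kinesin turns the energy of ATP into steps along a microtubule. Mitotic kinesins build the spindle, move and align chromosomes and organise cytokinesis, and in dividing cells their messenger RNAs accumulate late in the cell cycle. Transport kinesins instead carry vesicles, organelles and messenger RNA, and several are known from neurons, whose long axons and dendrites depend on them, while others are made by nearly every cell. Kinesin-2 motors also carry cargo within cilia, and KIF7 regulates Hedgehog signalling at the tip of the primary cilium.

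Library totals ranged from 22506431 to 32537104 reads counted on genes. Levels are given as CPM, reads of a gene scaled to a common library size after TMM normalization. Replicates of a group correlated at 0.983 to 0.991 (Pearson's r of log2 CPM across genes, which are not independent replicates). Changes are log2 fold changes of treated over control with their standard error, and adjusted p-values come from edgeR (its quasi-likelihood test, adjusted by the method of Benjamini and Hochberg over all 21297 genes tested, written as edgeR adjusted p). Calls of higher or lower needed an adjusted p under 0.05, and a strict call also asked for an adjusted p under 0.01 and a log2 fold change beyond 2 in size. Where every control library held no read, no fold change is given, and the fold is a lower bound against a floor of 3 reads per library. The median log2 fold change of all tested genes was 0.10 for 253J, 0.05 for J82, 0.12 for RT112 and 0.20 for TCCSUP. With library sizes alone in place of TMM these medians rose by 0.271, 0.145, 0.148 and 0.311, and no called change of a kinesin changed sign in any of the 24 refits that tested it.

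Among 14 urothelial and epithelial markers, the keratins KRT8 and KRT18 had at least 996 reads in every library. Other epithelial markers were low in some lines. EPCAM had 11 to 14 reads in 253J control and 23 to 44 in J82 control libraries, and GATA3 had 9 to 11 and 0 to 40. KRT5 had no read in any 253J or J82 library. RT112 control libraries had 6489 to 6493 reads of EPCAM, 1116 to 1134 of GATA3 and 8301 to 8333 of KRT5. Markers of the differentiated urothelium were sparse: UPK2 and UPK3A had no read in any 253J or J82 library, and RT112 alone had abundant UPK1B, with 39715 to 44765 reads in control and 8810 to 9402 in treated libraries.

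Promoter sequence of the kinesin genes is described first, and its link to the changes with CM-1758 was not tested. RefSeq windows (GRCh38.p14, 250 bases before to 50 bases after the annotated start) were at hand for 34 of the 42 kinesin genes, and for 26 of these 34 the stretch from base 26 to base 50 after the start lay in a GENCODE 29 transcript of the gene on the same strand. Windows of KIF5A, KIF21B, KIFC2, KIF13B, KIFC3, KIF19, KIF27 and KIF26B were not used here. Motifs were searched on both strands, each on its own. The first was CCAAT, the box known to bind the factor NF-Y (NF-Y box). The second was the cell cycle homology region (CHR) element, known from promoters of late cell cycle genes, spelled TTTGAA. Its second spelling TTTAAA was counted with it. The last was the GC box, spelled GGGCGG, a common element of promoters without a TATA box.

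An NF-Y box was found in 11 of 14 mitotic kinesin windows (78.6%), in 3 of 12 transport kinesin windows (25%) and in 35.7% of all 27305 windows. A CHR element was present in 12 of the 14 mitotic windows (85.7%), 2 of the 12 transport windows (16.7%) and 24.3% of all windows. Both motifs occurred together in 10 mitotic windows (71.4%) against 9.49% of all windows. The GC box did not separate the classes, with 85.7% of mitotic and 83.3% of transport windows against 44.6% of all. A match describes these letters only and is not evidence of a bound site, and the absence of one says only that the letters are not in this window.

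The 120 bases before the annotated start are shown for the 4 mitotic kinesins called lower in every line (KIF20A, KIF4A, KIF23 and KIF15), for the mitotic kinesin with the smallest mean fall (KIF18A), and for a neuronal kinesin that rose in every line (KIF17), on the strand of the gene. Capitals mark the NF-Y box and the CHR element, each on either strand. KIF20A lies at chr5:138178992-138179111 (plus strand), KIF4A at chrX:70289984-70290103 (plus strand), KIF23 at chr15:69414229-69414348 (plus strand), KIF15 at chr3:44761674-44761793 (plus strand), KIF18A at chr11:28108157-28108276 (minus strand) and KIF17 at chr1:20718008-20718127 (minus strand), all in GRCh38.p14.
KIF20A: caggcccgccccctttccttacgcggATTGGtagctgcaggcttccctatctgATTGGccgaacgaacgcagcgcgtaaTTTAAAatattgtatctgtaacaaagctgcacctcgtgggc
KIF4A: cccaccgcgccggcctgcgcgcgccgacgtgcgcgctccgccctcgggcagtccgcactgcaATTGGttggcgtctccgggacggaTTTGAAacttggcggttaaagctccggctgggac
KIF23: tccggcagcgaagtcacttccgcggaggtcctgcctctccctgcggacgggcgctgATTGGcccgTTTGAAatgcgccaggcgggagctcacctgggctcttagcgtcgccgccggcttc
KIF15: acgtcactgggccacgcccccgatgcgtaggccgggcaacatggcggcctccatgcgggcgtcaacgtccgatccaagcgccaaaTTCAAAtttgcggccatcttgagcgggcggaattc
KIF18A: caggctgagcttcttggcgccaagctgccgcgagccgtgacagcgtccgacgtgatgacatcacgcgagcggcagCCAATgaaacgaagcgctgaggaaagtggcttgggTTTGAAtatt
KIF17: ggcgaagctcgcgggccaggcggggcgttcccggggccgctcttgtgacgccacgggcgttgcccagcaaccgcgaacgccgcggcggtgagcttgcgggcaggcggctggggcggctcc
In the printed stretches KIF20A holds NF-Y boxes beginning 94 and 67 bases before the start and a CHR element beginning 41 bases before it. KIF15 holds a CHR element beginning 35 bases before the start and no NF-Y box in its window. The window of KIF2C, another of the 5 mitotic kinesins with the lowest mean change, holds no NF-Y box either. KIF18A holds both motifs, with the CHR element beginning 10 bases before the start, and its level was called lower in 253J and TCCSUP and in neither other line.

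Before treatment the mitotic kinesins made up most of the kinesin messenger RNA. Levels of different genes are compared here as CPM per kilobase of exon (GENCODE 29). The highest kinesin of the control groups was KIF5B, the ubiquitous heavy chain of conventional kinesin, in J82 (94.2 CPM per kilobase), RT112 (85.9) and TCCSUP (77.8), and KIF23 in 253J (52.3), where KIF20A (47.4) and KIF5B (43.2) followed. In the control libraries the mitotic list held 57.2 to 59.2% of the summed kinesin level for 253J, 54.6 to 58.2% for J82, 63.5 to 63.6% for RT112 and 63.1 to 63.4% for TCCSUP. The neuronal transport list held between 2.20% and 4.70% over the 8 control libraries.

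Control levels differed between the 4 lines for 32 of the 40 tested kinesins (edgeR F test of 3 contrasts, adjusted p under 0.05), close to the 78.8% of all genes. This count was unevenly spread: 17 of 17 transport kinesins differed, and 6 of 13 mitotic kinesins did. For KIF1A the call (adjusted p = 0.047 by that F test) rested on 4 reads in TCCSUP control replicate 1. KIF7, the Hedgehog regulator, differed the most by that test (adjusted p = 1.29e-10), with 26.6 and 25.4 CPM in J82 control and 0.326 and 0.460 CPM in 253J control. KIF23 did not pass it (adjusted p = 0.594), with control levels between 174.7 and 241.5 CPM over the 4 lines.

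CM-1758 lowered the mitotic kinesins. Of the 13 tested, 12 were called lower for 253J, 11 for J82, 4 for RT112 and 12 for TCCSUP, where lower calls took 22.4%, 18.5%, 20.2% and 22.1% of all genes in the same order. Strict lower calls numbered 11, 1, 0 and 5, against 3.5%, 1.24%, 1.39% and 3.31% of all genes. The median log2 fold change of the list was -2.30 for 253J, -0.98 for J82, -0.27 for RT112 and -1.90 for TCCSUP. The RT112 median became -0.43 when its treated replicate 1 was left out and -0.15 when its treated replicate 2 was. The RT112 count rests on little: it dropped to 2 when control replicate 1, control replicate 2 or treated replicate 2 of RT112 was left out, and with library sizes alone, RLE normalization, DESeq2 or a filter of at least 10 reads in every library. These are bulk samples, in which fewer dividing cells and less RNA per cell cannot be told apart.

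**Figure D1:**
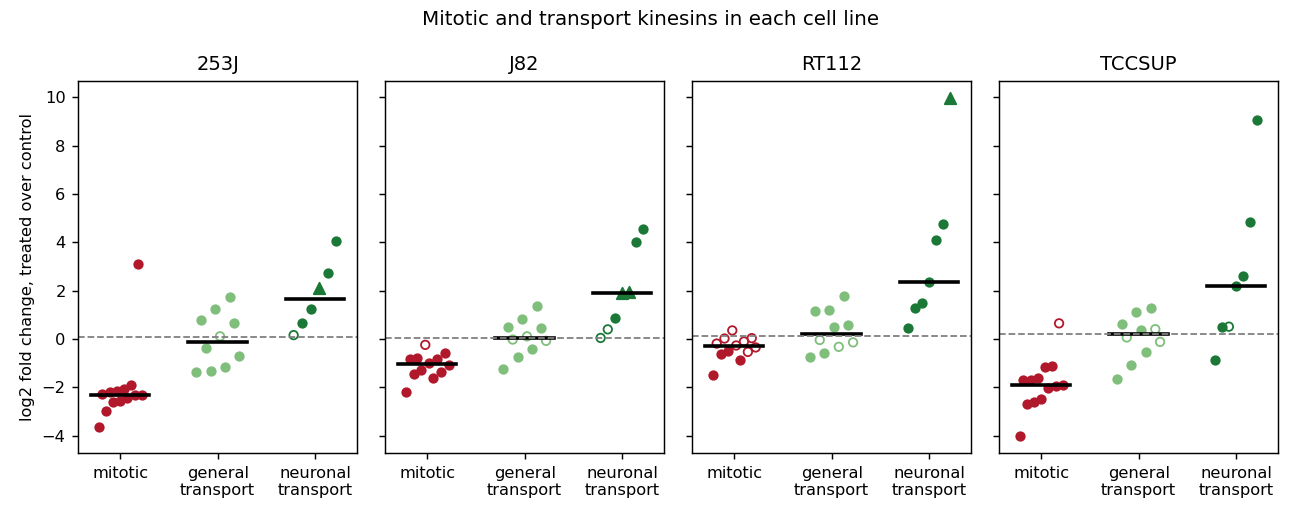
Log2 fold change of treated over control (y axis) for each tested mitotic, general transport and neuronal transport kinesin in the 4 cell lines. Filled points were called at an adjusted p under 0.05, open points were not, triangles are lower bounds for genes with no read in the control libraries, genes at or under 3 reads in all libraries of a line are left out, black bars are medians with those bounds, and the dashed line is the median of all tested genes. The mitotic medians lie at -2.30 in 253J and -1.90 in TCCSUP and closest to the dashed line in RT112, and the neuronal medians lie above it in every line.

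KIF20A, the motor that carries the chromosomal passenger complex to the central spindle, fell the most on average. Its level went from 159.8 and 143.5 CPM in the 253J control libraries to 14.4 and 10.1 CPM in the treated ones, and from 188 and 206.5 to 13.3 and 10.7 CPM in TCCSUP. J82 moved from 139 and 194.9 to 46.0 and 26.3 CPM, and RT112 from 195.8 and 191.2 to 79.2 and 58.6 CPM. No treated library reached a control library of its line. The log2 fold changes were -3.63 ± 0.27 for 253J, -2.21 ± 0.25 for J82, -1.49 ± 0.25 for RT112 and -4.04 ± 0.28 for TCCSUP (edgeR adjusted p = 1.03e-07, 8.23e-06, 0.000182 and 4.07e-08). The fall in TCCSUP exceeded that in RT112 by 2.55 ± 0.35 on the log2 scale (edgeR adjusted p = 7.9e-05), and the falls in 253J and TCCSUP differed by 0.41 ± 0.36, short of the threshold (edgeR adjusted p = 0.457).

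KIF23, the motor subunit of centralspindlin in cytokinesis, fell from 207.5 and 186.6 to 42.2 and 37.7 CPM in 253J and from 204.8 and 202.5 to 35.9 and 37.8 CPM in TCCSUP. In J82 it fell from 193.6 and 241.5 to 105.8 and 71.5 CPM. RT112 showed the smallest shift, from 174.7 and 190.5 to 143.1 and 117.1 CPM (log2 fold change -0.49 ± 0.18, edgeR adjusted p = 0.0329), and this call was lost in 7 refits, the RLE and DESeq2 refits among them.

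KIF2C, a microtubule depolymerase at centromeres, fell in 3 lines. Its libraries read 120.6 and 97.7 CPM in 253J control against 17.5 and 10.6 CPM after treatment, and 93.8 and 105.1 against 14.6 and 16.1 CPM in TCCSUP. In J82 the values were 122.1 and 164.4 CPM before and 67.6 and 38.1 CPM after. RT112 libraries did not overlap either, at 122.1 and 121 CPM against 92.3 and 75.5 CPM, but the change of -0.53 ± 0.25 missed the threshold (edgeR adjusted p = 0.0941).

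KIF4A, a chromokinesin of the spindle midzone, dropped from 81.7 and 73.0 to 17.3 and 11.1 CPM in 253J, and from 86.9 and 100.3 to 13.5 and 17.2 CPM in TCCSUP. Its fall in RT112, from 59.4 and 65.1 to 46.4 and 34.8 CPM, was called at an adjusted p of 0.0452 by edgeR and lost in 13 of the 24 refits. KIF15, which helps to keep the spindle bipolar, fell in all 4 lines in each refit, from 54.7 and 46.5 to 11.8 and 8.40 CPM in 253J and from 58.6 and 53.3 to 33.4 and 28.3 CPM in RT112.

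KIF18A, which dampens chromosome movements during alignment, had the smallest mean fall among the well-expressed mitotic kinesins. It went from 74.8 and 65.6 to 18.5 and 15.0 CPM in 253J, and from 83.3 and 90.4 to 39.2 and 40.9 CPM in TCCSUP. Control and treated libraries overlapped in J82 (79.1 and 96.7 against 88.5 and 60.1 CPM) and in RT112 (57.5 and 58.5 against 64.9 and 54.0 CPM). The change in 253J was larger than that in RT112 by 2.11 ± 0.26 on the log2 scale (edgeR adjusted p = 2.49e-05).

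KIF14, a cytokinesis motor, was the mitotic kinesin with the smallest interaction p. It fell from 101 and 106.6 to 25.2 and 20.3 CPM in 253J and from 147.2 and 132 to 47.3 and 44.8 CPM in TCCSUP. In RT112 both treated libraries, at 144.1 and 124.2 CPM, lay above the control libraries at 104.2 and 105.8 CPM, although the change of 0.35 ± 0.18 did not pass the test (edgeR adjusted p = 0.115). The J82 call (-0.58 ± 0.18) was lost when J82 control replicate 3 or J82 treated replicate 3 was left out. It was also lost with library sizes alone and with each line fitted alone.

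The calls of the remaining well-expressed mitotic kinesins were shared. KIF11, which pushes spindle poles apart, KIF18B, which acts on astral microtubules, KIF20B, which works in abscission, the chromokinesin KIF22 and the minus-end motor KIFC1 were each called lower in 253J, J82 and TCCSUP and not in RT112. Their log2 fold changes ran from -2.63 (KIF18B) to -1.92 (KIF20B) in 253J, from -1.37 (KIF18B) to -0.78 (KIF20B) in J82, from -0.35 (KIFC1) to 0.02 (KIF18B) in RT112, and from -2.04 (KIF18B) to -1.16 (KIFC1) in TCCSUP. In J82 the treated libraries of KIF11 stood apart, at 69.1 and 42.8 CPM, and the replicate spread of the mitotic median was 0.48 (SD) on the log2 scale there, against 0.28 in 253J, 0.21 in RT112 and 0.10 in TCCSUP.

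KIF4B is a near-identical retrocopy of KIF4A, so its few reads are uncertain. It was called higher in 253J, from 0 and 3 reads to 11 and 18 (ratio 9.46, 95% counting interval 2.93 to 48.5). That call was lost with DESeq2, under the replicate block, and without 253J control replicate 2, treated replicate 1 or treated replicate 3. KIF4B had at most 6 reads in a control library. It passed the count filter through treated libraries, so a lower call was hardly possible for it.

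**Figure D2:**
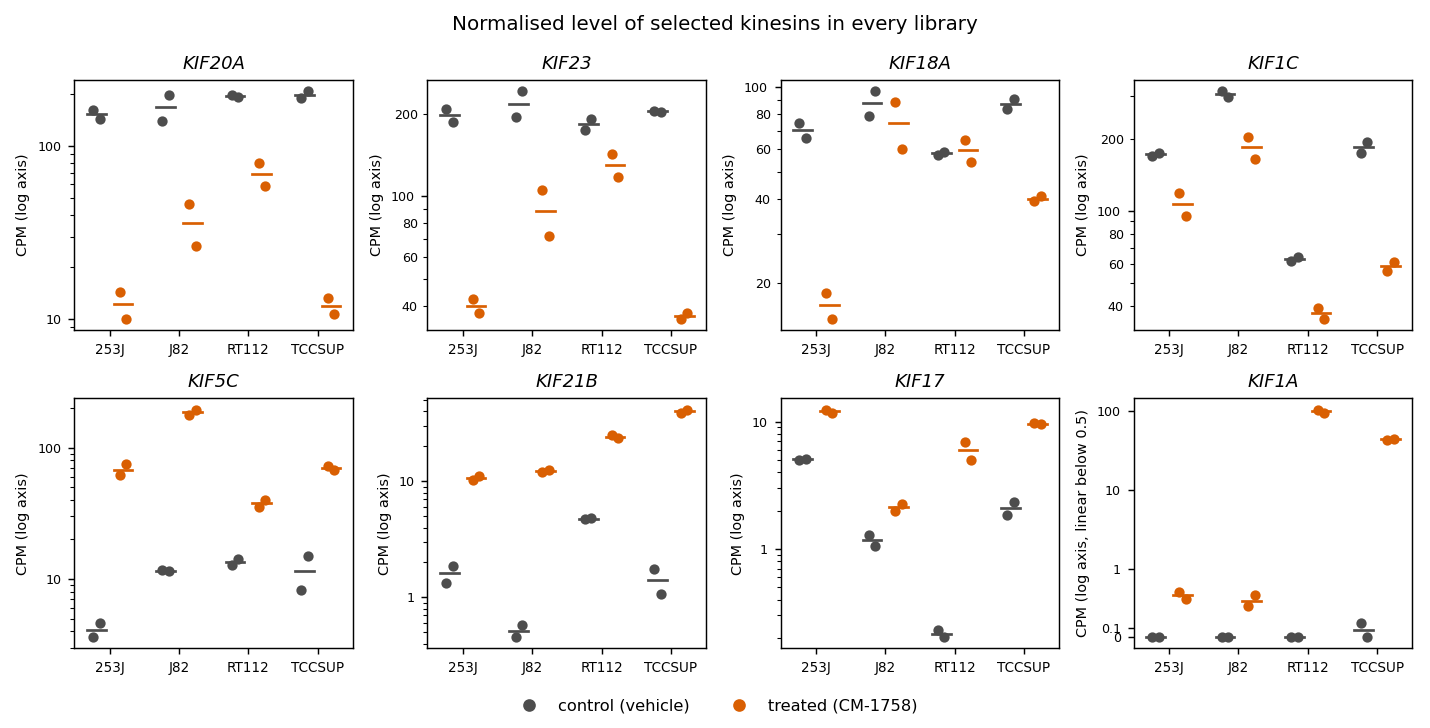
CPM on a log axis (linear below 0.5 for KIF1A) of 8 kinesins in every library of the 4 cell lines, with control in grey, treated in orange, 2 points per group and the group mean as a bar. KIF20A and KIF23 fall in each line, KIF18A overlaps in J82 and RT112, and KIF5C, KIF21B, KIF17 and KIF1A rise in each line.

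The weak response of RT112 was tested directly. Of the 13 mitotic kinesins, 12 changed differently in RT112 and 253J, 12 in RT112 and TCCSUP, and 6 in RT112 and J82 (edgeR, adjusted p under 0.05), where 30%, 27.5% and 22.2% of all genes did. Over the 4 lines together the interaction of treatment and line was called for 12 of 13 mitotic kinesins, 13 of 17 transport kinesins and 33 of all 40 kinesins, against 51.9% of all genes.

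Genes that work with mitotic kinesins were described next to them, from a list of 16 spindle partners (kinases, passenger proteins and spindle assembly factors). Their lower calls numbered 16 for 253J, 15 for J82, 1 for RT112 and 16 for TCCSUP, against 22.4%, 18.5%, 20.2% and 22.1% of all genes. In RT112 the lower call was NDC80, a kinetochore protein, and ECT2, an exchange factor of cytokinesis, was called higher (both named after their values were seen). The median log2 fold change of the list was -2.42, -0.99, -0.35 and -2.26. PLK1, the polo-like kinase that drives mitotic entry, fell from 25.6 and 23.6 to 3.96 and 2.6 CPM in 253J, and in RT112 it moved from 33.0 and 34.3 to 29.2 and 23.9 CPM without passing the test (edgeR adjusted p = 0.314). AURKB, the kinase of the passenger complex that KIF20A carries, fell from 18.7 and 25.1 to 2.36 and 4.01 CPM in TCCSUP. The part of this shift in the kinesin result was not tested.

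Of the 17 transport kinesins, 9 were called higher for 253J, 9 for J82, 12 for RT112 and 9 for TCCSUP, where 28.8%, 24%, 27.4% and 32% of all genes were higher. Lower calls numbered 5, 3, 2 and 4, near the 22.4%, 18.5%, 20.2% and 22.1% of all genes. Strict higher calls numbered 3, 4, 4 and 4, all of them neuronal, against 9.43%, 8.81%, 11.4% and 14.2% of all genes. In J82 the strict calls of KIF1A and KIF5A rest on fitted values without a control read. Their bounds, 1.90 and 1.96 on the log2 scale, lie under the strict limit of 2. The median transport change lay above the median mitotic change by 2.96 for 253J, 1.43 for J82, 1.43 for RT112 and 2.40 for TCCSUP on the log2 scale, as a description without a test.

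**Figure D3:**
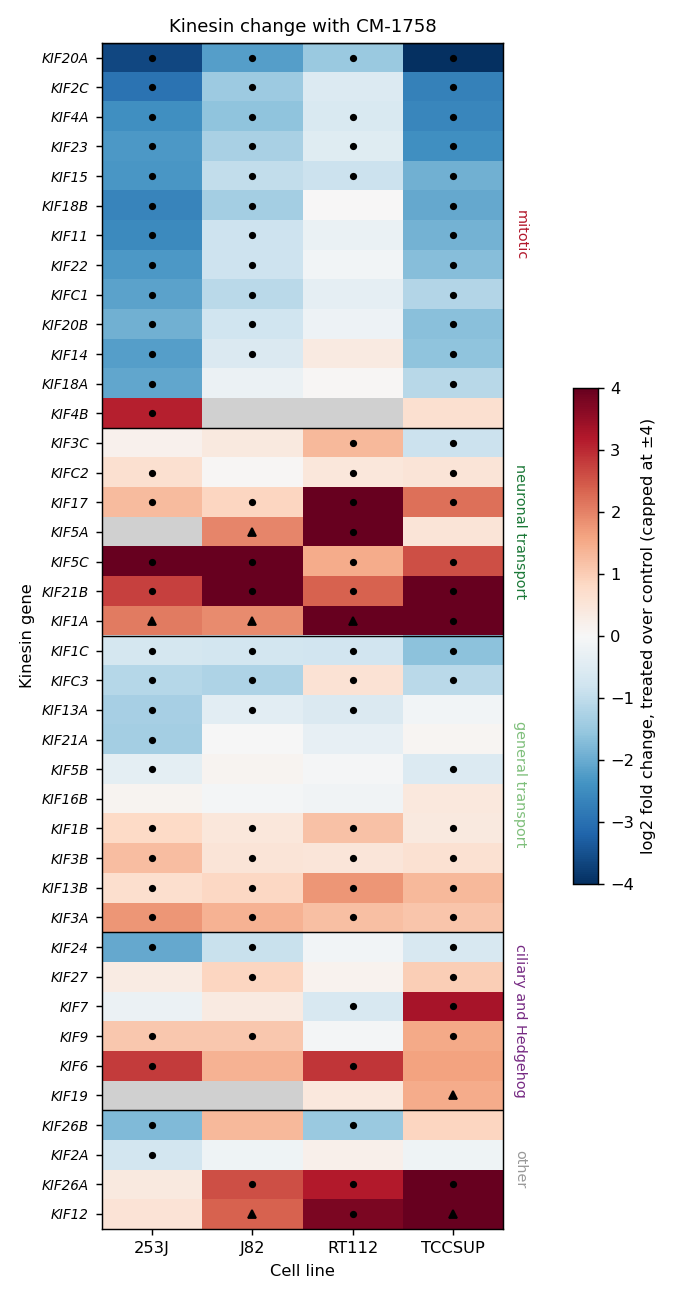
Log2 fold change of treated over control for the 40 tested kinesins (rows, by class and mean change) in the 4 cell lines (columns), with colour capped at 4 in either direction. Dots mark calls at an adjusted p under 0.05, triangles mark calls whose colour is a lower bound since no control library held a read, and grey cells had at most 3 reads in each library. The mitotic block is blue in 253J and TCCSUP and pale in RT112, and the neuronal block holds most of the deep red cells.

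The neuronal transport kinesins carried the rise. Higher calls took 28.8%, 24%, 27.4% and 32% of all genes in the 4 lines, and lower calls 22.4%, 18.5%, 20.2% and 22.1%. Of the 7 neuronal kinesins, 5 were higher for 253J, 5 for J82, 7 for RT112 and 5 for TCCSUP, and 1 was lower, in TCCSUP. The median log2 fold change was 1.26, 4.0, 2.35 and 2.20 in the 4 lines. With members that had no control read set at their bound, and those with no usable reads left out, it was 1.68, 1.90, 2.35 and 2.20. Called higher in all 4 lines were KIF1A, KIF5C, KIF17 and KIF21B. KIF1A had at most 4 reads in a control library. It passed the count filter through treated libraries, so a lower call was hardly possible for it.

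KIF1A, the motor of synaptic vesicle precursors in axons, had no read in the control libraries of 253J, J82 and RT112. In RT112 it reached 2698 and 2519 reads after treatment (105.5 and 96.0 CPM), at least 1010-fold higher than the floor. TCCSUP went from 4 and 0 reads to 1169 and 1147 reads (43.7 and 45.1 CPM, edgeR adjusted p = 6.79e-09). The fitted log2 fold change of 9.07 rests on those 4 control reads, so its size is uncertain. In 253J the treated libraries held 13 and 13 reads, at least 4.27-fold higher, and in J82 10 and 14 reads, at least 3.73-fold higher. The treated level thus ranged from 0.358 CPM in a J82 library to 105.5 CPM in an RT112 library. The interaction did not pass the test (edgeR adjusted p = 0.0885), and its fold changes there rest on control groups without reads.

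KIF5C, a neuron-enriched heavy chain of conventional kinesin, was expressed in every control library. It rose from 3.62 and 4.60 to 61.3 and 74.6 CPM in 253J and from 11.8 and 11.4 to 176.7 and 194.2 CPM in J82. RT112 moved from 12.8 and 14.2 to 35.3 and 40.1 CPM, and TCCSUP from 8.19 and 14.9 to 71.8 and 67.5 CPM. Every treated library lay above both control libraries of its line. The log2 fold changes were 4.05 ± 0.24, 4.0 ± 0.23, 1.48 ± 0.21 and 2.59 ± 0.22 in 253J, J82, RT112 and TCCSUP (edgeR adjusted p = 1.83e-08, 1.99e-08, 5.01e-05 and 2.57e-07). The rise in RT112 was smaller than that in 253J by 2.57 ± 0.31 on the log2 scale (edgeR adjusted p = 2.21e-05), while 253J and J82 differed by 0.05 ± 0.30 (edgeR adjusted p = 1).

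KIF21B, a dendritic motor that also restrains microtubule growth, rose from 1.74 and 1.07 to 38.5 and 41.5 CPM in TCCSUP. In J82 it rose from 0.456 and 0.582 to 12 and 12.6 CPM, and in 253J from 1.34 and 1.88 to 10.3 and 11.1 CPM. RT112 had the highest control level, 4.74 and 4.81 CPM, and reached 25.2 and 23.4 CPM. The rise in TCCSUP (4.83 ± 0.23) and in J82 (4.55 ± 0.26) exceeded that in RT112 (2.35 ± 0.20) with edgeR adjusted p = 2.02e-05 and 0.000243.

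KIF17, which carries glutamate receptor subunits in dendrites, showed another order of lines. In RT112 it rose from 0.229 and 0.203 to 6.89 and 4.99 CPM (log2 fold change 4.75 ± 0.32), more than in each other line (edgeR adjusted p = 1.58e-05, 1.6e-05 and 0.000325 against 253J, J82 and TCCSUP). TCCSUP rose from 1.86 and 2.34 to 9.80 and 9.52 CPM, and 253J from 5.00 and 5.09 to 12.4 and 11.7 CPM. The J82 rise, from 1.29 and 1.05 to 2.00 and 2.27 CPM, lost its call without J82 control replicate 3 or J82 treated replicate 3. With each line fitted alone the J82 call was lost too.

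KIF5A, the neuronal heavy chain whose mutations cause motor neuron disease, had no read in any 253J library. In J82 it went from no read to 11 and 14 reads, at least 3.89-fold higher than the floor. RT112 libraries moved from 0.131 and 0 to 1.41 and 1.03 CPM (edgeR adjusted p = 0.000449). TCCSUP had the highest control level, 4.04 and 3.52 CPM against 5.58 and 5.19 CPM after treatment, with no call (edgeR adjusted p = 0.329).

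KIF3C, a neuron-enriched partner of KIF3A, was called in opposite directions. RT112 rose from 7.26 and 5.45 to 14.8 and 16.3 CPM (1.29 ± 0.21), whereas TCCSUP fell from 27.5 and 25.5 to 13.4 and 15.5 CPM (-0.87 ± 0.20), and these changes differed by 2.17 ± 0.29 (edgeR adjusted p = 6.39e-05). KIFC2, a minus-end motor known from neurons, changed least in the list, with log2 fold changes of 0.66 in 253J, 0.47 in RT112 and 0.50 in TCCSUP that were called and 0.04 in J82 that was not. Its RT112 call was lost without RT112 control replicate 1 or treated replicate 2, and its TCCSUP call without TCCSUP treated replicate 2.

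Neuronal markers that are no motors were described next to these kinesins. SYN1, STMN2, DCX and ELAVL4 had at most 7 reads in a control library. They could pass the count filter only through treated libraries, so a lower call was hardly possible for them. Of 12 markers 9 were tested, and 8 were called higher for 253J, 6 for J82, 7 for RT112 and 7 for TCCSUP, where higher calls took 28.8%, 24%, 27.4% and 32% of all genes. Their summed level over the 12 genes rose from 77.0 to 81.2 CPM in control to 274 to 283 CPM in treated 253J libraries, from 7.78 to 13.4 CPM to 94.0 to 96.7 CPM in J82, from 1.14 to 1.15 CPM to 26.3 to 26.9 CPM in RT112, and from 67.3 to 76.1 CPM to 188 to 189 CPM in TCCSUP. After treatment RBFOX3 had at most 7 reads, ELAVL3 had 0 reads in J82, RT112 and TCCSUP and at most 14 in 253J, and the neurofilament NEFH had none in any library. Their part in the kinesin result was not tested.

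Of the 10 general transport kinesins, 4 were called higher for 253J, 4 for J82, 5 for RT112 and 4 for TCCSUP, and 5, 3, 2 and 3 were lower. Over all genes 28.8%, 24%, 27.4% and 32% were higher and 22.4%, 18.5%, 20.2% and 22.1% lower, so that several of these counts lie near the background, such as the lower calls in RT112. The median log2 fold change was -0.14, 0.04, 0.23 and 0.23, near the medians of all genes, and no strict call was made. Rises in all 4 lines were seen for KIF3A and KIF3B, the pair that forms kinesin-2 and builds cilia, for KIF1B, which carries mitochondria and vesicles, and for KIF13B, a motor of the kinesin-3 family. KIF3A rose by log2 fold changes of 1.76 for 253J, 1.38 for J82, 1.21 for RT112 and 1.12 for TCCSUP, and its interaction did not pass the test (edgeR adjusted p = 0.0832). KIF13B rose most in RT112, from 33.6 and 36.0 to 123.6 and 113.9 CPM.

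KIF1B and KIF3B had smaller rises, and some of their calls rested on single libraries. KIF1B changed by 0.79, 0.45, 1.16 and 0.39 on the log2 scale in 253J, J82, RT112 and TCCSUP. Its call was lost in J82 without J82 control replicate 3 and with each line fitted alone. In TCCSUP its call was lost without TCCSUP control replicate 1, control replicate 2 or treated replicate 1. KIF3B changed by 1.22, 0.51, 0.49 and 0.60, its RT112 call was lost without RT112 treated replicate 1, and its J82 call with each line fitted alone.

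KIF1C, which moves vesicles between the Golgi apparatus and the endoplasmic reticulum, fell in all 4 lines. TCCSUP moved from 173.9 and 193.6 to 55.8 and 60.9 CPM, 253J from 169.7 and 173.7 to 118 and 94.9 CPM, and J82 from 315.8 and 299.4 to 202.5 and 164.8 CPM. RT112 started lower, at 61.7 and 63.8 CPM, and fell to 39.0 and 35.3 CPM. The groups did not overlap in any line. The fall in TCCSUP (-1.66 ± 0.15) exceeded that in 253J (-0.69 ± 0.14) with an edgeR adjusted p of 0.00226, and the falls in J82 and RT112 differed by 0.01 ± 0.20 (edgeR adjusted p = 1).

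KIFC3, a minus-end motor of epithelial cell junctions and the Golgi apparatus, fell in 3 lines and rose in RT112. It fell from 125.6 and 118.6 to 60.5 and 49.3 CPM in 253J, from 95.9 and 91.8 to 44.0 and 35.6 CPM in J82, and from 86.8 and 92.7 to 40.3 and 45.4 CPM in TCCSUP. RT112 rose from 35.8 and 35 to 53.9 and 51.3 CPM (0.57 ± 0.14, edgeR adjusted p = 0.00359). The change in RT112 differed from that in 253J by 1.73 ± 0.20 (edgeR adjusted p = 1.4e-05).

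KIF13A, which brings cargo to recycling endosomes and the cell surface, fell in 253J from 113.7 and 97.8 to 45.1 and 39.0 CPM and in RT112 from 109 and 106.7 to 69.4 and 73.8 CPM. Its J82 change of -0.43 ± 0.13 was called, but not without J82 control replicate 1 or J82 treated replicate 3, with library sizes alone, with at least 10 reads in every library or with each line fitted alone, and its TCCSUP change of -0.12 ± 0.13 was not called. KIF21A, a relative of KIF21B, fell in 253J alone by the calls, from 161 and 156.5 to 61.3 and 62.4 CPM. KIF5B was called lower in 253J (-0.38) and TCCSUP (-0.54), the first of them lost in 10 refits, and KIF16B, a motor of early endosomes, was called in no line.

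**Figure D4:**
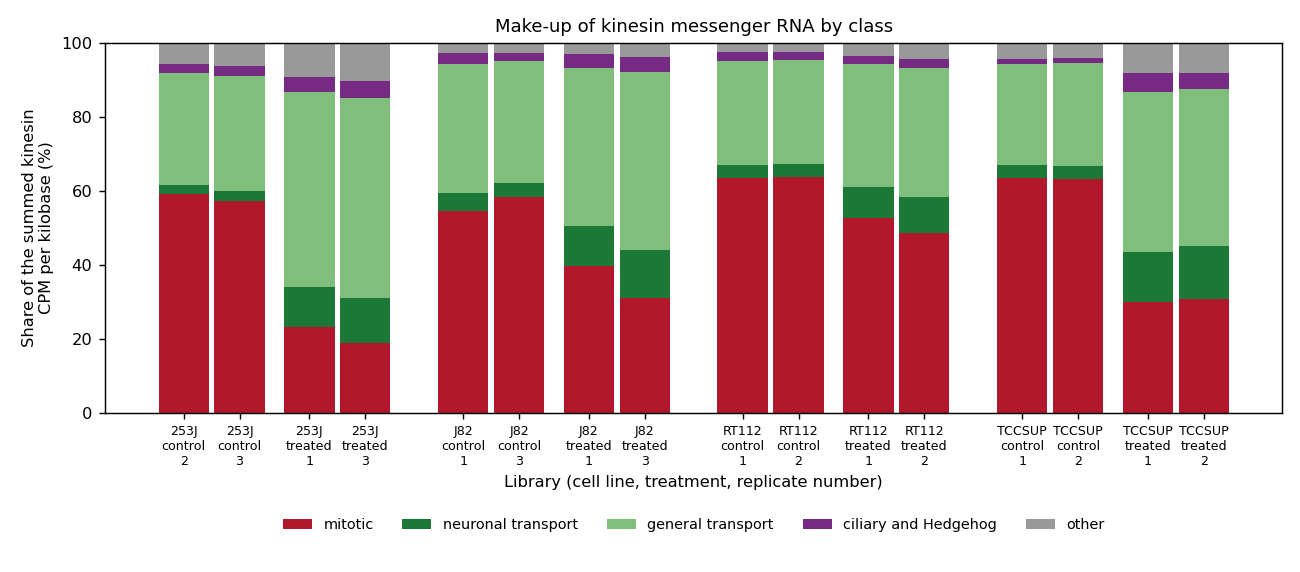
Share of the summed kinesin level (CPM per kilobase of exon, percent, y axis) held by each class in every library, as stacked bars. The mitotic share of the treated libraries is 18.9 to 23.2% for 253J, 31.0 to 39.6% for J82, 48.6 to 52.7% for RT112 and 29.8 to 30.6% for TCCSUP, below the control libraries of each line.

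The composition of kinesin messenger RNA shifted in each line. Per kilobase, the mitotic share fell from 57.2 to 59.2% in control to 18.9 to 23.2% in treated 253J libraries, and in RT112 from 63.5 to 63.6% to 48.6 to 52.7%. J82 went to 31.0 to 39.6% and TCCSUP to 29.8 to 30.6%. The neuronal share rose to 10.8 to 12.2% for 253J, 11 to 12.9% for J82, 8.28 to 9.62% for RT112 and 13.5 to 14.4% for TCCSUP. Control and treated libraries did not overlap in either share in any line. The summed level of all kinesins fell in 253J, from 477 to 513 in control to 238 to 248 CPM per kilobase in treated libraries, and from 590 to 612 to 312 to 315 CPM per kilobase in TCCSUP. It also fell without overlap in J82, from 583 to 671 to 421 to 488 CPM per kilobase. In RT112 the sums were 542 to 551 in control and 476 to 537 CPM per kilobase in treated libraries, a narrow gap. TMM factors of RT112 were 1.00 and 1.03 in control and 1.12 and 1.13 in treated libraries, so this gap depends on TMM. Sums with library sizes alone were not computed. In treated J82 cells KIF5C, at 26.8 CPM per kilobase, stood above each mitotic kinesin, of which KIF23 was the highest at 23.6.

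Among the 6 ciliary and Hedgehog kinesins, 2 were called higher for 253J, 2 for J82, 1 for RT112 and 4 for TCCSUP, and 1 in each line was lower. These counts lie near the 28.8%, 24%, 27.4% and 32% of all genes called higher, except in TCCSUP, and near the 22.4%, 18.5%, 20.2% and 22.1% called lower. KIF19, counted among the TCCSUP higher calls, had no read in any control library and passed the count filter through treated libraries. A lower call was thus hardly possible for KIF19, and its higher call was lost in 9 refits. KIF7 gave the smallest interaction p of all kinesins. It rose in TCCSUP from 2.65 and 2.95 to 28.9 and 25.8 CPM (3.29 ± 0.23, edgeR adjusted p = 4.24e-08) and fell in RT112 from 6.28 and 6.23 to 4.81 and 3.28 CPM (-0.63 ± 0.22, edgeR adjusted p = 0.0275). The RT112 call was lost with library sizes alone, with each line fitted alone and without RT112 control replicate 1, control replicate 2 or treated replicate 2. The TCCSUP rise exceeded the J82 change (34.4 and 32.2 CPM after treatment, 26.6 and 25.4 before) by 2.93 ± 0.30 (edgeR adjusted p = 7.04e-06). KIF24, which restrains the growth of cilia from the mother centriole, was called lower in 253J (-2.05), J82 (-0.89) and TCCSUP (-0.63, lost with library sizes alone) and had a log2 fold change of -0.10 in RT112.

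KIF6 and KIF9, known from motile cilia and sperm tails, were low throughout. KIF6 rose from 0.290 and 0.881 to 4.12 and 4.08 CPM in 253J and from 0.196 and 0.237 to 1.92 and 1.30 CPM in RT112. The 253J call was lost under the replicate block. Its reads in TCCSUP went from 2 and 3 to 13 and 3 (ratio 3.15, 95% counting interval 1.10 to 11) with no call. KIF9 shares its locus with the antisense gene KIF9-AS1, and the strand setting of the counting is not given in the sources used here, so its calls in 253J (1.09), J82 (1.07) and TCCSUP (1.52) are uncertain. KIF27, a relative of KIF7, rose in J82 (0.85) and TCCSUP (1.00). KIF19, which trims ciliary microtubules, had no read in any control library and was called in TCCSUP only, at 9 and 8 reads, at least 2.79-fold higher than the floor, a call lost in 9 refits.

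The 5 remaining kinesins held both quiet and strongly rising members. KIF12, a kinesin of kidney and liver epithelia, went from no read to 201 and 108 reads in TCCSUP, at least 50.4-fold higher than the floor, and to 10 and 23 reads in J82, at least 5.10-fold higher. In RT112 it rose from 0.458 and 0.339 to 5.95 and 5.03 CPM (edgeR adjusted p = 1.75e-05). 253J had the highest control level, 10.5 and 15.3 CPM against 15.8 and 21.5 CPM after treatment, with no call (edgeR adjusted p = 0.2).

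KIF26A, an atypical kinesin that binds microtubules without moving on them, rose in RT112 from 1.99 and 1.19 to 17.6 and 11.1 CPM (3.17 ± 0.44, edgeR adjusted p = 4.13e-05). In J82 it went from 5 and 0 reads to 18 and 15 (2.57 ± 0.82, edgeR adjusted p = 0.0199), a call lost in 3 refits. The 253J libraries moved from 10.46 and 9.84 to 14.45 and 12.11 CPM with no call (edgeR adjusted p = 0.443). In TCCSUP KIF26A went from 0 and 3 reads to 20 and 36 (ratio 18.4, 95% counting interval 5.98 to 91.9). Its relative KIF26B fell in 253J (-1.77) and RT112 (-1.49), the latter lost without RT112 control replicate 1 or treated replicate 2. KIF2A, a depolymerase that acts both in spindles and in axons, was lower in 253J (-0.72) and called in no other line. KIF25 had no read in control libraries and at most 17 after treatment.

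The partners of transport kinesins were described from a list of 16 light chains and adaptors, which attach cargo to the heavy chains. Higher calls numbered 11 for 253J, 8 for J82, 10 for RT112 and 8 for TCCSUP, lower calls 0, 1, 2 and 2, against 28.8%, 24%, 27.4% and 32% of all genes higher and 22.4%, 18.5%, 20.2% and 22.1% lower, and the median log2 fold change was 0.86, 0.39, 0.58 and 0.51. HAP1, the huntingtin-associated adaptor, rose in all 4 lines, from 0 and 0.230 to 12.6 and 12.9 CPM in 253J and from 0.356 and 0.421 to 17.9 and 14.5 CPM in TCCSUP. MAPK8IP1, the JIP1 scaffold that links kinesin light chains to axonal cargo, rose from 1.77 and 1.39 to 25.2 and 21.7 CPM in RT112 and from 1.41 and 2.07 to 15.4 and 27.5 CPM in J82. The light chain KLC3 was called higher in all 4 lines (log2 fold changes 4.0, 1.57, 1.83 and 1.28), whereas KLC4 was called lower in RT112 (-1.04) and in no other line. KLC3 and KLC4 were singled out after their values were seen.

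Over all 40 tested kinesins, 20 were called lower and 12 higher for 253J, 15 and 13 for J82, 8 and 15 for RT112, and 17 and 15 for TCCSUP. Of all genes 22.4%, 18.5%, 20.2% and 22.1% were lower and 28.8%, 24%, 27.4% and 32% higher in these lines. Several of the counts lie near these shares, such as the lower calls in RT112. With library sizes alone the RT112 split became 5 lower and 17 higher, and without RT112 control replicate 1 or RT112 treated replicate 2 it became 4 lower and 14 higher. Called lower in all 4 lines were KIF4A, KIF15, KIF20A, KIF23 and KIF1C, with the RT112 calls of KIF4A and KIF23 lost in the refits named above.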

How the data were processed

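RNA from CM-1758 and vehicle-treated cells was sequenced for the authors as stranded, rRNA-depleted total RNA libraries, and they deposited 1 table of raw counts, whole numbers of reads per gene symbol, in 16 columns, each matched to a sample by its labels (0 columns were left over). The submitters' processing notes name HISAT2, StringTie and GRCh37. Versions, the annotation, the counting tool and its strand setting are not given in the sources used here, so no coordinates of the counts are given.

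Counts were filtered with filterByExpr over the 8 groups (21297 genes kept), scaled with TMM factors and analysed by quasi-likelihood with edgeR 4.0.16 (R 4.3.3) over all 16 libraries (residual degrees of freedom 8, common biological coefficient of variation 0.153). Contrasts were treated against control in each line, their differences between lines and the differences between control lines. The study's methods name DESeq2 for its normalized matrix. DESeq2 1.42.0 was run here as an alternative together with RLE and unscaled library sizes, 2 other count filters, leaving out 7 small noncoding RNA genes, each line alone, a replicate block and each library left out. For comparisons between genes CPM were divided by the exon length of GENCODE 29. Intervals are exact at 95% and, like the floor of 3 reads, cover counting error only. Since a group has 2 libraries, the estimate of spread draws on all genes and is shared by all 8 groups. The replicate spread of the mitotic median was 0.48 (SD) in J82 and 0.10 in TCCSUP. Tests in J82 thus draw partly on the spread of lines with closer replicates.

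Where a gene had several annotated starts, the first window listed was used. Members at or under 3 reads in a group were also set at their bound, an alternative chosen after seeing the data. The members and gene lists were chosen with earlier results of these data known. Values by library, in some or all lines, are given for the 5 mitotic kinesins with the lowest and 2 with the highest mean log2 fold change. They are also given for the 5 highest and 3 lowest transport kinesins, the 2 largest of each other list and the 3 smallest interaction p-values. Members called in opposite directions are named. Figures were drawn with matplotlib 3.10.9.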

Additional observations from a re-analysis of the deposited data

Results flagged for a closer look

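The change with CM-1758 differed between the 4 cell lines for 33 of the 40 tested kinesins, and 18 of these are listed here. The 18 were taken from kinesins picked for values by library or called in opposite directions. The test was an F test of the interaction of treatment and line (edgeR's quasi-likelihood model, Benjamini-Hochberg adjustment), which called 51.9% of all genes. KIF7, KIF14 and KIFC3 were named for the smallest interaction p-values, and KIF3C for its opposite calls. Their place in the count of 18 therefore follows from how they were chosen. Among mitotic kinesins the adjusted p-values were 7.95e-05 for KIF20A, 0.000175 for KIF2C, 0.000655 for KIF4A, 3.83e-05 for KIF23, 0.00133 for KIF15, 3.47e-05 for KIF18A and 7.08e-06 for KIF14.

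Among transport kinesins the adjusted p-values were 0.00242 for KIF1C, 7.41e-06 for KIFC3, 0.000613 for KIF13A, 1.53e-05 for KIF17, 0.00546 for KIF5A, 1.39e-05 for KIF5C, 1.6e-05 for KIF21B and 0.000213 for KIF3C. The remaining values were 8.64e-07 for KIF7, 3.38e-05 for KIF12 and 0.00299 for KIF26A. The lines cannot be ordered for KIF12 and KIF5A, which had no control read in at least 1 line. Groups of 2 libraries allow no test for an outlying library.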

How the results depend on the processing

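Over all genes 24% to 32% were called higher and 18.5% to 22.4% lower in a line. Of 160 kinesin changes tested (40 genes in 4 lines), 115 were called. Of these, 77 were tested and kept in all 24 refits, 17 were kept where tested but not tested with at least 10 counts in every library, 21 lost their call in at least 1 refit and 0 changed sign. The cause of each shift was not tested. At the strict threshold, taken on fitted values, the lower mitotic calls were 1 for J82, 0 for RT112 and 5 for TCCSUP. The higher transport calls were 3 in 253J and 4 in each other line. Of the J82 calls, KIF1A and KIF5A fell under the limit by their bounds. The lower transport calls were 0 in each line. The lower mitotic calls in RT112 (4) became 2 with RLE, with library size only, with DESeq2 and with at least 10 counts in every library. The values that follow are median log2 fold changes of the transport kinesins, ordered 253J, J82, RT112, TCCSUP. They were 0.6976, 0.5342, 1.239 and 0.5452 with RLE, 0.9262, 0.5899, 1.307 and 0.8121 with library size only, 0.6985, 0.5343, 1.239 and 0.5451 with DESeq2, and 0.4873, 0.3663, 0.66 and 0.5506 with at least 10 counts in every library. General transport kinesins alone gave -0.136 (against 0.655, the sign turned), 0.04252, 0.2251 and 0.227, and neuronal ones alone 1.258, 3.999, 2.348 and 2.201, each of these by its smaller list. The transport minus mitotic median was 2.167 in 253J, 0.4946 in RT112 and 2.125 in TCCSUP with general kinesins alone, 3.561, 4.979, 2.617 and 4.098 in the 4 lines with neuronal ones alone, 0.8425 in RT112 with at least 10 counts, and in TCCSUP 2.293 with no low-count filter and 2.294 with KIF2A as mitotic. The TCCSUP mitotic median was -1.587 with library size only, -1.76 with at least 10 counts and -1.794 with KIF2A as mitotic. Leaving out 1 library gave transport medians of 0.5152 to 0.7347 for 253J, 0.3308 to 0.5875 for J82, 1.09 to 1.187 for RT112 and 0.4268 to 0.5051 for TCCSUP, differences of 2.647 to 3.277 in 253J, 1.128 to 1.833 in J82, 1.259 to 1.604 in RT112 and 2.252 to 2.398 in TCCSUP, a mitotic median of -0.427 to -0.151 in RT112, and 2 to 5 lower mitotic calls in RT112. Whether replicate numbers pair the samples cannot be told from 2 libraries per group. Deviations of the control and treated libraries correlated across genes at 0.218 for J82, 0.0427 for RT112 and 0.0173 for TCCSUP. For 253J the value was 0.0529, which does not test the pairing since only 1 number is shared. The replicate block moved the 253J transport median to 0.5708 and the kinesins called in 253J from 12 higher and 20 lower to 10 and 19. With each line fitted alone the kinesins called in J82 went from 13 higher and 15 lower to 9 and 13. The share of higher calls in RT112 went from 65.2% to 77.3% with library size only. Depth limits KIF4B, KIF19, KIF25 and the control levels of KIF1A, KIF5A and KIF12, which rest on few or no reads.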

Other observations

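The motor that walks against most kinesins, cytoplasmic dynein with its activator dynactin, was described from a list of 16 subunits and adaptors. In 253J 9 of them were called higher and 3 lower, in J82 1 higher and 2 lower, in RT112 5 higher and 1 lower, and in TCCSUP 2 higher and 8 lower. Of all genes 28.8%, 24%, 27.4% and 32% were higher and 22.4%, 18.5%, 20.2% and 22.1% lower in these lines, near several of the counts, such as the higher calls in RT112. The median log2 fold change was 0.51, -0.14, -0.10 and -0.33. DYNLT3, a light chain, rose in each line, from 52.4 and 43.6 to 111.9 and 103.4 CPM in 253J and from 50.9 and 45.1 to 80.9 and 77.6 CPM in RT112. DYNC1I1, an intermediate chain enriched in neurons, rose in 253J (2.14 ± 0.49, edgeR adjusted p = 0.00199) and RT112 (2.15 ± 0.59, edgeR adjusted p = 0.00757), and its changes of 0.51 in J82 and 1.02 in TCCSUP were not called.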
